A study of Rattus norvegicus with 174 samples.

Results

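The heart 1 h after phosphine inhalation is described here from 8 hearts, 4 of exposed and 4 of air-breathing rats, out of 174 arrays of 33 rats in the series and 30 heart arrays. All 13438 genes that at least 1 probe set measured alone were tested, so no gene was chosen by its values. The rats were male Sprague-Dawley rats, an outbred stock, of 300 to 400 g, and their exact age was not given in the sources used here. The exposed group, PH3 1H, had inhaled 660 ppm phosphine by whole-body exposure. The exposure lasted 32.2 min, giving a concentration-time product of 21252 ppm x min that the labels rate at 0.91 of the median lethal product (LCt50). The control group, Air 1H, breathed air. All rats, exposed and air alike, were anaesthetised with ketamine at 90 mg/kg together with 10 mg/kg of xylazine and exsanguinated, and each heart came from a different animal. Hearts were pulverised frozen, so each array holds RNA of the muscle, the vessels, the connective tissue and the remaining blood together. In such samples fewer cells of a type and less RNA per cell cannot be told apart. The comparison asks which transcripts differ in the heart soon after a near-lethal exposure.

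Phosphine is a fumigant gas that is known to disturb mitochondrial respiration, and the heart, which depends on oxidative metabolism, is a recognised target of phosphine poisoning. Cells answer many acute stimuli with immediate early genes, whose promoters are switched on within minutes by transcription factors already present in the cell. Most of these genes encode transcription factors, signalling brakes or secreted factors, and their transcripts are short-lived. A second layer, the integrated stress response, works through the translation factor eIF2 and the transcription factor ATF4.

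Values are log2 signals per probe set, so a difference of 1 is a 2-fold difference, and the median of all probe sets was 4.41. Values of single hearts are given in the order Rat710, Rat712, Rat716 and Rat719 for exposed hearts and Rat720, Rat721, Rat726 and Rat727 for air hearts. Effects are phosphine minus air ± SE with the Benjamini-Hochberg adjusted p of the limma fit over all 13438 genes, and a gene is said to have risen or fallen where this p was under 0.05. Since these are arrays, the number of hearts, 4 against 4, limits the precision.

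At 1 h 179 genes passed, 1.33% of those tested. Of these, 133 genes (0.99%) were higher in exposed hearts and 46 (0.342%) were lower. At least a 2-fold difference was reached by 64 of the higher and 8 of the lower genes, together 0.536% of those tested. The 4 exposed and 4 air values did not overlap in 166 of the 179 genes, against 6.3% of all genes. The 179 genes were selected by the values of the same hearts, so this share is a description and no test. Genes passing were higher in 74.3% of cases, in 61.4% after centring each array on its median, and in 62.9% after quantile normalization within heart. The median effect of all genes was -0.001, and median centring shifted it to -0.057. Among the 179 genes, 57 have several probe sets, and in 14 of these another probe set had the opposite sign.

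The number of genes that passed depended on single hearts. Without exposed Rat712 it was 73, without exposed Rat719 it was 79, and without air Rat721 it was 78. Without air Rat726 it was 115, and without air Rat720 it was 119. With any 1 of the 8 hearts left out, 62 of the 179 genes passed each time, 48 of them higher. The heart of exposed Rat712 carried hepatocyte transcripts, with a mean of 7.9 over 12 hepatocyte markers against 3.55 to 4.16 in the other hearts. Lung epithelium markers averaged 5.07 in exposed Rat710 and 3.32 to 3.48 in the rest. The 11 cardiomyocyte markers averaged 12.55 to 12.66 in the 8 hearts, as the tissue label says. The array of air Rat726 had the lowest 75th percentile over genes, 7.474. Without both Rat712 and Rat726, a choice made after seeing the data, 50 genes passed, 46 of them among the 179. Counts of gene lists are therefore given also without Rat712, when 53 genes (0.394%) were higher and 20 (0.149%) lower over all genes.

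The largest rise, of Atf3, was of a member of the AP-1 family of transcription factors, dimers of Fos, Jun, Atf and Maf proteins that bind a common DNA element. Of its 12 measured members 7 rose and none fell, with a median effect of 0.92 over the list, and 2 passed without Rat712. Atf3 (probe set 1369268_PM_at), a repressing member induced by stress, measured 9.86, 10.62, 9.47 and 10.61 in exposed hearts and 5.76, 6.16, 5.66 and 6.32 in air hearts. Every exposed heart lay more than 3 log2 above every air heart, and Atf3 had the largest effect of all 13438 genes, 4.16 ± 0.57 (17.9-fold, adjusted p = 3.09e-04). Atf3 passed whichever heart was left out.

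Fosb, a Fos protein, measured 5.34, 6.9, 4.7 and 8.06 in exposed hearts and 3.22, 3.38, 3.46 and 3.39 in air hearts. The air values were close together and below the median of all probe sets, while the exposed values spread over more than 3 log2, with Rat719 highest and Rat716 lowest. Its effect was 2.89 ± 0.67 (7.39-fold, adjusted p = 0.0277), and without Rat712 it did not pass (adjusted p = 0.116). Junb showed the same order, with 8.02, 8.62, 6.97 and 9.44 in exposed hearts against 6.5, 6.58, 6.1 and 5.86 in air hearts (effect 2 ± 0.47, adjusted p = 0.0309). For Jun the exposed hearts measured 10.09, 10.36, 9.55 and 10.71 and the air hearts 9.21, 8.99, 9 and 9 (effect 1.13 ± 0.28, adjusted p = 0.038). Neither Junb nor Jun passed without Rat712 (adjusted p = 0.118 and 0.129). Fosl2, a Fos-related member that is low in air hearts (2.63 to 3.34), rose by 1.33 ± 0.26 (adjusted p = 0.00612). The small Maf proteins Maff and Mafk, which lack an activation domain and pair with other basic leucine zipper factors, rose by 1.57 ± 0.35 (adjusted p = 0.0198) and 0.72 ± 0.16 (adjusted p = 0.0223). Jund, the most evenly expressed Jun protein, did not pass (0.57 ± 0.17, adjusted p = 0.112), and its other probe set had the opposite sign.

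**Figure D1:**
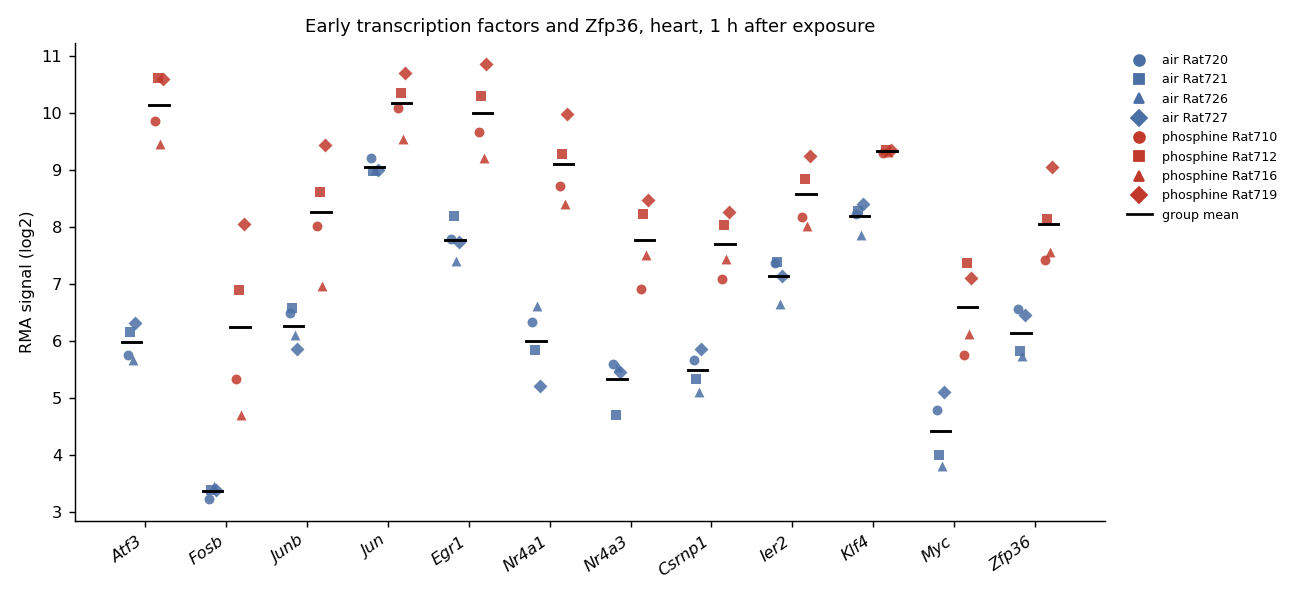
RMA signal (log2) of 12 early response genes in each of the 8 hearts at 1 h, blue for air and red for phosphine, with a marker shape per rat and a black line at the group mean. No exposed heart overlaps an air heart in these 12 genes, Fosb runs from 4.7 to 8.06 in exposed hearts, and Klf4 lies between 9.31 and 9.36 in all 4.

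Among 25 measured Egr, Klf and other early response genes, 8 rose and none fell (list median 0.52, 5 higher without Rat712). Egr1, a zinc finger factor that answers growth factors and stretch, measured 9.67, 10.3, 9.22 and 10.86 in exposed hearts and 7.79, 8.19, 7.41 and 7.74 in air hearts (effect 2.23 ± 0.54, adjusted p = 0.0355). The groups were apart by over 1 log2, yet the spread among exposed hearts was large enough that Egr1 passed in only 2 of the 8 fits without 1 heart. Csrnp1, a nuclear protein induced with the AP-1 genes, measured 7.09, 8.04, 7.44 and 8.27 against 5.66, 5.33, 5.1 and 5.86, an effect of 2.22 ± 0.38 (adjusted p = 0.00205) that passed in all 8. The proto-oncogene Myc measured 5.75, 7.37, 6.13 and 7.11 against 4.79, 4, 3.8 and 5.1 (effect 2.17 ± 0.48, adjusted p = 0.0198). Again Rat712 and Rat719 were the highest exposed hearts. Klf4, a vessel wall and endothelial factor, differed from these in its even response, with 9.31, 9.36, 9.33 and 9.36 in exposed hearts against 8.24, 8.29, 7.86 and 8.4 (effect 1.14 ± 0.21, adjusted p = 0.00357). Its relatives Klf10, an early target of TGF-beta, and Klf2, a factor that shear stress induces in endothelium, rose by 1.35 ± 0.21 (adjusted p = 6.22e-04) and 1.12 ± 0.24 (adjusted p = 0.0176). For Klf2 another probe set had the opposite sign. Ier2 and Ier5, early response genes that encode nuclear proteins, rose by 1.43 ± 0.32 (adjusted p = 0.0226) and 1.36 ± 0.23 (adjusted p = 0.00155).

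Of 15 measured orphan receptors of the Nr4a family and genes of the cyclic AMP response, 5 rose and none fell (list median 0.71, 3 higher without Rat712). Nr4a1, a nuclear receptor without a classical ligand, measured 8.73, 9.29, 8.41 and 9.99 in exposed hearts and 6.34, 5.84, 6.61 and 5.21 in air hearts (effect 3.11 ± 0.58, 8.61-fold, adjusted p = 0.0044). Nr4a3 measured 6.92, 8.23, 7.51 and 8.47 against 5.6, 4.7, 5.54 and 5.46 (effect 2.46 ± 0.39, adjusted p = 8.23e-04). Both passed in all 17 alternative fits. Sik1, a kinase that restrains cyclic AMP signalling to the nucleus, rose by 1.36 ± 0.26 (adjusted p = 0.00512). Crem, which encodes cyclic AMP response activators and repressors, rose by 1.34 ± 0.34 and lay just under the threshold (adjusted p = 0.0499). The clock gene Per1, also a cyclic AMP and glucocorticoid target, rose by 1.16 ± 0.28 (adjusted p = 0.0363), the 1 of 18 measured clock genes that passed, and without Rat712 it did not pass (adjusted p = 0.107).

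Promoter sequences of the genes that passed were taken from RefSeq (GRCr8), with 107 of the 133 higher and 40 of the 46 lower genes matched. In the 250 bases before the annotated start, on both strands, the palindromic cyclic AMP response element TGACGTCA occurred in 7 of the 107 promoters of higher genes (6.54%), in none of the 40 of lower genes, in 2.68% of 11089 promoters of measured genes and in 1.59% of all 33469. The AP-1 element TGANTCA, which cannot overlap with the former, was in 5.61% of promoters of higher genes and in 4.82% of those of measured genes. The CArG box, the element of serum response factor, was in 1.87% and 1.22%, and the TATA box TATAAA, which a CArG box can contain, in 16.8% and 8.04%. These are counts of letters and no test of binding. The 7 genes with the cyclic AMP element were Ier2, Maff, Ppp1r15a, Ccnl1, Flt1, Ell2 and Wsb1. Promoters of the first 5 of these are printed to show how near the start the element lies, with the element in capitals, in the direction of the gene and up to the base before its start. They lie at chr19:40399253-40399372 (plus strand) for Ier2, chr7:112792667-112792786 (plus) for Maff, chr1:105139597-105139716 (minus) for Ppp1r15a, chr2:152507469-152507588 (minus) for Ccnl1 and chr12:12333280-12333429 (plus) for Flt1.
Ier2: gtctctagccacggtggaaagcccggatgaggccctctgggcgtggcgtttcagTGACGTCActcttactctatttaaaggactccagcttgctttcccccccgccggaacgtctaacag
Maff: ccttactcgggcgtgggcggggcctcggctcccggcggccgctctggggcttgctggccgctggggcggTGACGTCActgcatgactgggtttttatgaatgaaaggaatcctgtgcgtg
Ppp1r15a: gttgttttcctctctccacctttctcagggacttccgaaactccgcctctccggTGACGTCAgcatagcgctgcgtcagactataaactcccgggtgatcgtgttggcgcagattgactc
Ccnl1: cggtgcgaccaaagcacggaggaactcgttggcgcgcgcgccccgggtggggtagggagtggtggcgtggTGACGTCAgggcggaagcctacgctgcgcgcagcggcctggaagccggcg
Flt1: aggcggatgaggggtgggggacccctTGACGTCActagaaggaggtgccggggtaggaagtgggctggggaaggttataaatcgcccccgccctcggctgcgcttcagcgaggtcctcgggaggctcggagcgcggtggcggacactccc

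The element begins 66 bases before the start of Ier2 and of Ppp1r15a, 51 before that of Maff, 50 before that of Ccnl1 and 124 before that of Flt1. One promoter with a CArG box and 1 with an AP-1 element are shown beside them, Zfp36 at chr1:92799109-92799208 (minus) and Plaur at chr1:89181243-89181362 (plus).
Zfp36: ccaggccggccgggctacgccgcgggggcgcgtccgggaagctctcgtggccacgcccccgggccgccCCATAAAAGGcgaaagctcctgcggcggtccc
Plaur: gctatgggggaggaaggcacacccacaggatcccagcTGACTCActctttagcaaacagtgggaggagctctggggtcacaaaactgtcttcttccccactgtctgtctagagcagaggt

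Zfp36, a protein that marks AU-rich messenger RNAs for decay, measured 7.43, 8.14, 7.57 and 9.06 in exposed hearts and 6.57, 5.83, 5.74 and 6.45 in air hearts (effect 1.90 ± 0.39, adjusted p = 0.01). It was the 1 of 15 measured genes of NF-kB feedback and messenger RNA decay that passed, and it passed also without Rat712 (adjusted p = 0.0402). Nfkbia, the inhibitor of NF-kB, lay above the air hearts in all 4 exposed hearts, with an effect of 1.13 ± 0.30 that did not pass (adjusted p = 0.0592). None of the 11 measured brakes of MAP kinases and receptors passed (list median 0.27), Dusp1, a phosphatase of MAP kinases, being at 0.88 ± 0.23 (adjusted p = 0.0564). The highest effect in this list was that of Errfi1, an inhibitor of the EGF receptor, with 9.16, 10.09, 9.07 and 10.06 in exposed and 7.15, 6.62, 7.4 and 8.19 in air hearts. Its groups did not overlap, and its effect of 2.25 ± 0.67 did not pass (adjusted p = 0.104), while it passed in 3 of the 17 alternative fits. Of 16 genes of STAT3 and the interleukin-6 family, Junb, the kinase Pim1 and the leucine zipper factor Cebpb rose (list median 0.37), and none passed without Rat712. Pim1 rose by 1.43 ± 0.35 (adjusted p = 0.0382) with overlapping groups, and Cebpb by 1.28 ± 0.28 (adjusted p = 0.0192). Of 31 measured cytokines, chemokines and their receptors none rose and 1, Cxcr4, fell (list median 0.09), also without Rat712 (adjusted p = 0.0402). The chemokine Ccl2 measured 6.96, 8.04, 5.58 and 7.43 in exposed and 5.04, 5.97, 5.78 and 5.01 in air hearts, and with Rat716 inside the air range its effect of 1.55 ± 0.56 did not pass (adjusted p = 0.226).

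Secreted and surface proteins of the matrix and of clotting also rose. Of 20 measured matricellular genes and proteases 5 rose and none fell, with a list median of 0.08, so that the rest of the list lay around 0, and 2 passed without Rat712. Ccn1, a matrix-bound signalling protein and target of YAP and of serum response factor, measured 8.21, 10.12, 7.93 and 9.73 in exposed hearts and 5.38, 5.78, 5.54 and 5.44 in air hearts. Its effect of 3.46 ± 0.75 (11-fold, adjusted p = 0.0187) was the second largest, and without Rat712 it was 3.09 with an adjusted p of 0.0926. Its relative Ccn2 measured 11.27, 11.81, 11.38 and 11.48 against 10.15, 9.67, 10.08 and 10.33 (effect 1.43 ± 0.28, adjusted p = 0.00651). The secreted proteases that cut matrix proteoglycans, Adamts1, Adamts4 and Adamts9, rose by 1.72 ± 0.29 (adjusted p = 0.00155), 1.95 ± 0.45 (adjusted p = 0.0279) and 0.79 ± 0.17 (adjusted p = 0.0195). Outside the list, Tnfaip6, a hyaluronan-binding protein, rose by 1.85 ± 0.43 (adjusted p = 0.0271).

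Of 17 measured adhesion and coagulation genes 5 rose and none fell (list median 0.23). F3, tissue factor, which starts clotting, was even among exposed hearts, with 8.24, 8.43, 8.28 and 8.34 against 7.31, 6.71, 6.85 and 7.54 (effect 1.22 ± 0.22, adjusted p = 0.00357), and it was the 1 member that passed without Rat712. Plaur, the receptor of urokinase, measured 5.06, 5.31, 4.87 and 6.13 against 4.11, 3.36, 3.82 and 3.76 (effect 1.58 ± 0.35, adjusted p = 0.0192). The thrombin receptor F2r, the related protease-activated receptor F2rl1 and the plasminogen activator Plat rose by 0.69 ± 0.17 (adjusted p = 0.0422), 1.18 ± 0.30 (adjusted p = 0.0422) and 0.71 ± 0.17 (adjusted p = 0.0362). Platelet markers averaged 5.47 in exposed Rat710 and 5.15 in Rat716, against 4.44 to 4.63 in the other 6 hearts, and none of the 6 markers passed. All 6 had effects above 0 (median 0.31). Without Rat712 1 of the 6 passed, the platelet chemokine Ppbp, at 0.68 (adjusted p = 0.0272), against 0.46 ± 0.17 (adjusted p = 0.248) with all hearts. The part of platelets or of blood left in the hearts in these values was not tested.

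Of 25 measured genes of ATF4 and the integrated stress response 7 rose and none fell (list median 0.38), and 2 passed without Rat712. Besides Atf3 and Cebpb these were the hormone Gdf15, the phosphatase subunit Ppp1r15a, the amino acid carriers Slc7a1 and Slc7a5, and Atf4 itself. Gdf15, a circulating stress hormone, measured 5.26, 5.81, 4.87 and 8.04 in exposed hearts and 3.36, 3.37, 4.19 and 4.28 in air hearts (effect 2.19 ± 0.51, adjusted p = 0.0285), with Rat719 over 2 log2 above the others. Ppp1r15a, which reverses the block of translation by restoring eIF2, measured 8.38, 9.11, 8.79 and 9.33 against 7.75, 7.6, 7.86 and 7.51 (effect 1.22 ± 0.24, adjusted p = 0.00612). Atf4 rose by 0.48 ± 0.12 (adjusted p = 0.0442). Ddit3, which encodes the factor CHOP, measured 8.58, 9.07, 8.21 and 9.37 against 8.21, 8.33, 8.22 and 7.62, overlapped between the groups and did not pass (0.71 ± 0.21, adjusted p = 0.114). None of the 15 measured genes of the unfolded protein response of the endoplasmic reticulum passed (list median 0.02).

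Several rising genes act on growth arrest and survival. Of 18 p53 targets and growth arrest genes, Gadd45b, Gadd45g and Cdkn1a rose (list median 0.13). Gadd45b, a stress sensor that activates a MAP kinase kinase kinase, measured 8.71, 9.47, 7.86 and 9.9 in exposed and 6.77, 6, 6.31 and 7.09 in air hearts (effect 2.44 ± 0.37, adjusted p = 6.22e-04). It was the 1 of these 3 that passed without Rat712, where Gadd45g and the cell cycle inhibitor Cdkn1a had adjusted p-values of 0.0812 and 0.0759. Mcl1, an anti-apoptotic member of the Bcl-2 family, rose by 0.60 ± 0.15 (adjusted p = 0.0468), the 1 of 18 apoptosis regulators that passed, and without Rat712 none did (adjusted p of Mcl1 = 0.184). Otud1, a deubiquitinase, measured 10.67, 11.49, 11.08 and 11.46 against 8.84, 8.28, 8.9 and 8.94 (effect 2.43 ± 0.44, 5.4-fold, adjusted p = 0.00327), and it passed in all 17 alternative fits.

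Genes of hormone response and fuel choice changed in small number. Of 24 measured glucocorticoid responsive genes 5 rose and none fell (list median 0.41, 3 higher without Rat712). They were Gadd45b, Sgk1, Per1, Pdk4 and Cdkn1a. Sgk1, a kinase of ion transport, measured 9.3, 9.68, 9.22 and 9.79 in exposed and 7.57, 7.46, 7.86 and 8.25 in air hearts (effect 1.71 ± 0.31, adjusted p = 0.00346). Pdk4, which shuts pyruvate dehydrogenase and so favours fat as fuel, measured 11.29, 11.34, 10.76 and 11.06 against 10.17, 10.27, 9.49 and 9.97 (effect 1.14 ± 0.20, adjusted p = 0.00255). It rose together with Ppargc1b, a coactivator of mitochondrial genes (0.87 ± 0.15, adjusted p = 0.00155), the 2 of 31 genes of fatty acid oxidation and fuel use that passed. Irs2, an adaptor of the insulin receptor, had tight groups, 8.17, 8.7, 8.15 and 8.28 against 6.18, 6.03, 6.41 and 6.32, and rose by 2.09 ± 0.29 (4.26-fold, adjusted p = 3.09e-04). Pdk4, Ppargc1b and Irs2 also passed without Rat712.

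Genes of respiration and contraction did not pass. None of 32 measured subunits of respiratory complex I and none of 36 of complexes II to V passed, with list medians of -0.01 and 0 and effects from -0.17 (Ndufa5) to 0.05 (Ndufb11) within complex I. None of 22 sarcomere genes (list median 0.05), 20 calcium handling genes (0.01) or 21 genes of sodium, potassium and gap junction channels (-0.06) passed. Among 24 genes of cardiac stress and remodelling Xirp1, an actin-binding protein of the intercalated disc, was the 1 that rose, with 8.49, 9.73, 8.35 and 9.95 against 7.85, 7.87, 7.29 and 7.5 (effect 1.5 ± 0.35, adjusted p = 0.0306, and adjusted p = 0.142 without Rat712). Abra, an actin-binding protein of striated muscle, stands in no list and rose in all fits, from 8.6, 9, 8.4 and 8.53 in air hearts to 10.16, 11.04, 10.23 and 11.03 (effect 1.98 ± 0.32, adjusted p = 8.23e-04). None of 18 heat shock chaperones (list median 0.07), 24 NRF2 and antioxidant genes (0.04), 12 metallothioneins and zinc transporters (0.02) or 15 genes of iron and heme (0.02) passed. The highest effects in these lists were of Hspa1a (0.75), Srxn1 (1.22), Mt2A (1.54) and Hmox1 (0.88), with adjusted p-values of 0.391, 0.103, 0.233 and 0.334. A p that misses the threshold does not show that a gene was unchanged.

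**Figure D2:**
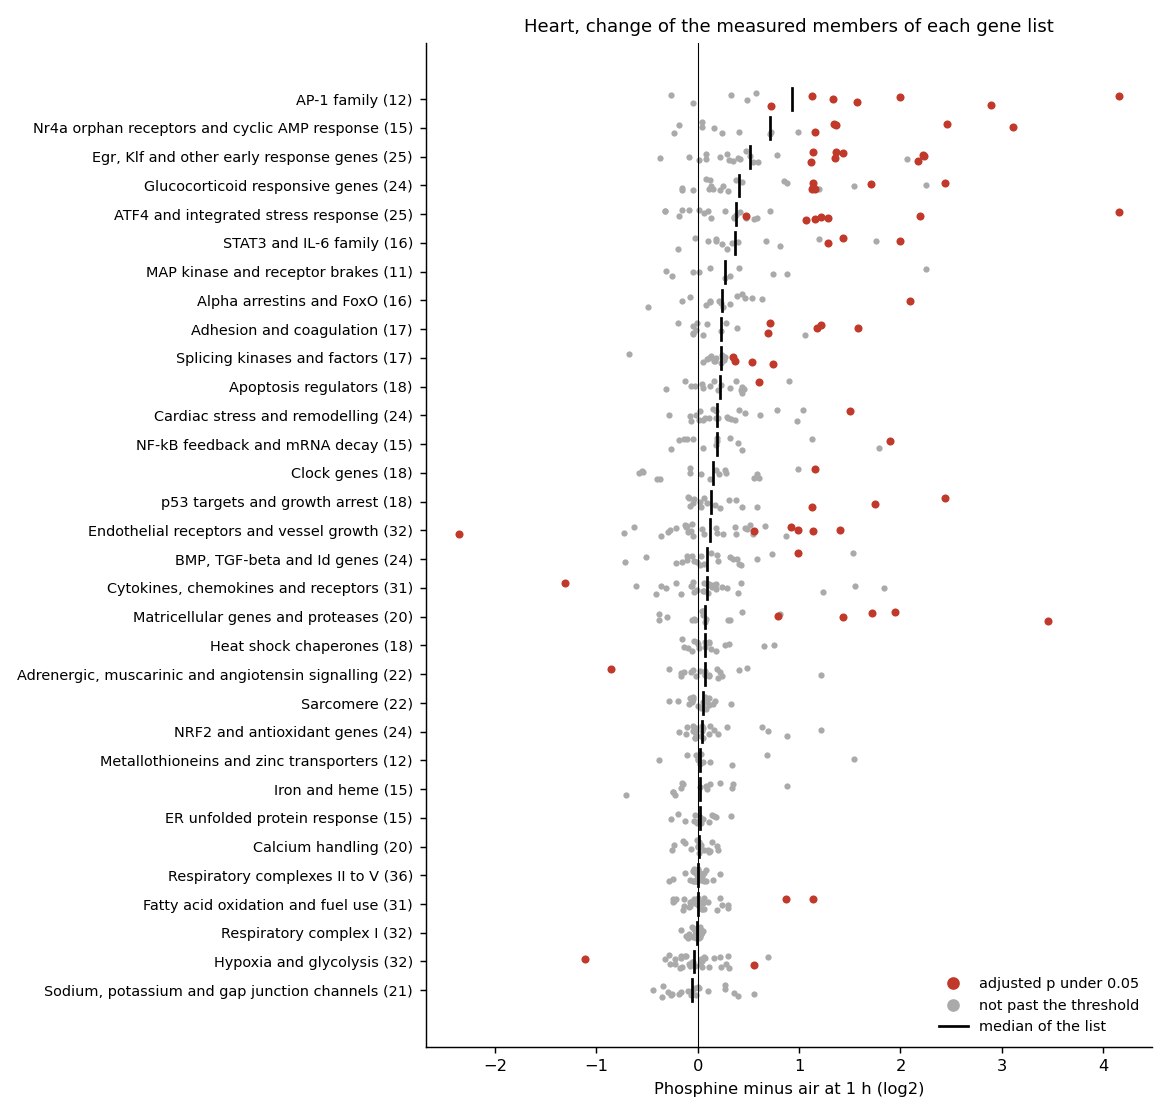
Effect of phosphine at 1 h (log2, horizontal axis) of every measured member of 32 gene lists, with the number of members in brackets, red where the adjusted p was under 0.05 and grey elsewhere, and a black line at each list's median. The AP-1 list is at the top with a median of 0.92 and 7 red points, and the points of respiratory complex I lie between -0.17 and 0.05.

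Of 32 measured hypoxia and glycolysis genes 1 rose and 1 fell (list median -0.04). Vegfa, the growth factor of vessels and a textbook hypoxia target, measured 10.14, 10.21, 10.1 and 10.25 in exposed and 9.97, 9.52, 9.55 and 9.47 in air hearts (effect 0.55 ± 0.12, adjusted p = 0.0192). Ankrd37, also known as a hypoxia target, went the other way, with 3.25, 4.12, 3.82 and 3.6 against 4.41, 4.66, 5.05 and 5.08 (effect -1.11 ± 0.24, adjusted p = 0.0186). All exposed values of Ankrd37 lie under the median of all probe sets, 4.41. Without Rat712 Vegfa did not pass (adjusted p = 0.0759) and Ankrd37 did (adjusted p = 0.0176).

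Of 32 measured genes of endothelial receptors and vessel growth 5 rose and 1 fell (list median 0.12), and 1 rose and 1 fell without Rat712. The risers were Vegfa, the vessel transcription factor Sox17, the tight junction protein Cldn5, and Pgf and Flt1, a ligand and receptor of the VEGF family. Sox17 measured 7.67, 8.08, 7.97 and 8.39 in exposed and 6.67, 6.3, 6.5 and 7.07 in air hearts (effect 1.40 ± 0.22, adjusted p = 8.23e-04), although another probe set of it had the opposite sign. Flt1 rose by 0.92 ± 0.22 (adjusted p = 0.0358), Pgf by 0.99 ± 0.25 (adjusted p = 0.0436) and Cldn5 by 1.14 ± 0.26 (adjusted p = 0.0255). The mean of 10 endothelial markers was 8.81 to 8.88 in exposed and 8.58 to 8.79 in air hearts. Of these 10, Cldn5 and the adhesion protein Esam (0.61 ± 0.15, adjusted p = 0.0399) rose, the median of the 10 was 0.13, and none passed without Rat712. Id1, an inhibitor of basic helix-loop-helix factors that BMP signals induce in endothelium, was even at 10.11, 10.11, 9.94 and 10.23 against 9.21, 9.09, 9.1 and 9.04 (effect 0.99 ± 0.22, adjusted p = 0.0194). Lyve1, a marker of resident macrophages and lymphatic vessels, rose by 0.72 ± 0.18 (adjusted p = 0.0381), the 1 of 11 macrophage markers that passed, and without Rat712 none did (adjusted p of Lyve1 = 0.121). The part of cell numbers in these values was not tested.

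Akap12, a scaffold of protein kinase A, measured 9.24, 9.91, 8.93 and 9.95 against 7.45, 7.39, 7.46 and 8.18 (effect 1.89 ± 0.25) and shared the smallest adjusted p, 2.88e-04, with Plek and the corepressor Irf2bp2. Plek, a protein kinase C substrate of platelets and leukocytes, measured 6.05, 6.63, 6.32 and 6.44 against 4.97, 4.74, 4.57 and 5.42 (effect 1.44 ± 0.19, adjusted p = 2.88e-04). Among markers of blood cells, the 6 platelet markers averaged 4.44 to 5.47 in exposed and 4.47 to 4.63 in air hearts, and the 11 monocyte and neutrophil markers 4.13 to 4.53 against 4.07 to 4.12. The 5 erythroid markers, all with effects above 0, averaged 6.58 to 7.17 in exposed and 6.04 to 6.77 in air hearts. None of these 22 markers passed with all hearts, and their part in the values of Plek was not tested. Of 17 measured splicing kinases and factors 4 rose by small, even amounts and none fell (list median 0.23, 2 higher without Rat712). Srsf5, a serine and arginine rich splicing factor, measured 9.49, 9.83, 9.77 and 9.72 against 8.99, 9.05, 8.8 and 9.01 (effect 0.74 ± 0.11, adjusted p = 5.23e-04). The RNA helicase Ddx5 rose by 0.53 ± 0.09 (adjusted p = 8.93e-04), and Srsf6 and Srsf2 by 0.37 ± 0.09 (adjusted p = 0.049) and 0.35 ± 0.09 (adjusted p = 0.0379).

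The falls were led by receptors on the cell surface. Aplnr, the apelin receptor of endothelium and heart muscle (probe set 1379772_PM_at), measured 5.79, 4.77, 5.9 and 3.56 in exposed and 7.14, 7.48, 7.5 and 7.35 in air hearts. The air hearts lay close together, and Rat719, which had the highest values of many rising genes, had the lowest Aplnr. The effect was -2.36 ± 0.37 (5.14-fold lower, adjusted p = 7.21e-04) and passed whichever heart was left out. Cxcr4, the receptor of the chemokine Cxcl12, measured 6.11, 5.78, 5.55 and 5.82 against 7.08, 7.03, 7.05 and 7.36 (effect -1.31 ± 0.27, 2.48-fold lower, adjusted p = 0.0105). Lpar6, a receptor of lysophosphatidic acid, measured 6, 6.39, 5.74 and 5.42 against 7.02, 7.45, 7.04 and 7.26 (effect -1.31 ± 0.20, adjusted p = 6.22e-04). Both passed in all 8 fits without 1 heart.

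Cd200, a surface protein that quiets myeloid cells, measured 6.25, 5.58, 6.95 and 5.87 against 7.1, 7.51, 6.94 and 7.41, with Rat716 inside the air range (effect -1.08 ± 0.24, adjusted p = 0.0227, and adjusted p = 0.12 without Rat712). Rgs4, which shortens signals of G protein-coupled receptors, measured 6.28, 6.48, 6.42 and 6.22 against 7.37, 7.36, 6.8 and 7.31 (effect -0.86 ± 0.19, adjusted p = 0.0196), the 1 of 22 measured genes of adrenergic, muscarinic and angiotensin signalling that passed, also without Rat712 (adjusted p = 0.0426). Mylip, a ubiquitin ligase that degrades the LDL receptor, measured 4.92, 4.61, 5.34 and 4.84 against 5.88, 5.94, 6.23 and 6.28 (effect -1.16 ± 0.17, adjusted p = 6.22e-04). The cytokine Il16, the repressor Hic1 and Gimap6, a GTPase of lymphocytes and endothelium, fell by 0.85, 0.95 and 0.82 on the log2 scale (adjusted p = 0.0044, 0.0309 and 6.22e-04).

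**Figure D3:**
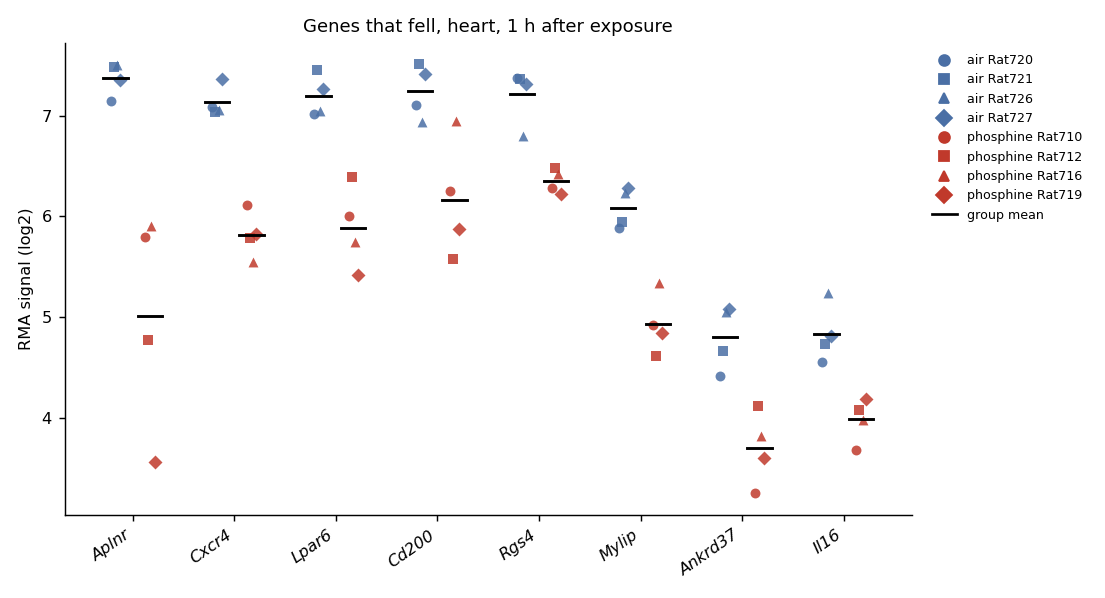
RMA signal (log2) of 8 genes that fell at 1 h in each of the 8 hearts, blue for air and red for phosphine, with a marker shape per rat and a black line at the group mean. Exposed hearts lie below the air hearts in all genes shown but Cd200, where Rat716 at 6.95 reaches the air range, and Aplnr spreads from 3.56 to 5.9.

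The exposed rats differed in how far the rising genes rose. Of the 133 genes 76 were highest in Rat719 and 50 in Rat712, while 64 were lowest in Rat716 and 57 in Rat710. The mean distance from the air hearts over the 133 genes was 1.46 in Rat719, 1.36 in Rat712, 0.92 in Rat710 and 0.88 in Rat716. These genes were selected for their mean over the same hearts, so the distances describe the rats and test nothing. In kidney, which took no part in that choice, the same genes stood 0.67 above air in Rat719, 0.54 in Rat712, 0.58 in Rat716 and 0.48 in Rat710. In lung the values were 0.59, 0.47, 0.42 and 0.40. Rat719 was thus highest in all 3 organs, and the order of the others was not the same. Degraded RNA shows as a larger gap between 3′ and 5′ signals of control genes, and the mean gap was 0.376 to 0.576 in exposed and 0.432 to 0.675 in air hearts, and Rat719 had the lowest.

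The genes that rose at 1 h were followed in the hearts of other rats, 4 exposed and 4 air rats each at 3 h and 24 h, and 4 exposed and 2 air rats at 6 h. Of the 133 higher genes, 34 were also higher at 3 h, which is 25.6% of the 133 and 23.9% of the 142 genes higher then, against 1.06% of all genes. At 6 h 3 were higher, 2.26% of the 133 and 12% of the 25 genes higher at that time (0.186% of all genes), and at 24 h none of the 10 higher genes (0.0744%) was among them. The median effect of the 133 was 0.99 at 1 h, 0.51 and 0.19 at 3 and 6 h and -0.08 at 24 h. Of the 46 lower genes 11 were also lower at 3 h, 23.9% of the 46 and 3.59% of the 306 genes lower then (2.28% of all genes). For the 46 the median effect was -0.66 at 1 h, then -0.26, -0.10 and 0.03. Both sets were chosen for passing at 1 h, a choice that enlarges their medians at that time, so the medians are a description and test no decline. All times share 1 estimate of spread per gene in this fit, so a gene of small spread passes more easily at each. The shares of genes passing at both times are therefore a description too. The test of the difference itself found 3 of the 179 genes to differ between 1 and 3 h.

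Effects of single genes at later times follow, and the courses of different genes were not tested against each other. None of the genes named in this paragraph passed the test of the difference between 1 and 3 h. Atf3 in exposed hearts was 10.14 ± 0.57 (SD, n = 4) at 1 h and 9.03 ± 0.51 (SD, n = 4) at 3 h, against 5.98 ± 0.31 (SD, n = 4) and 4.6 ± 0.31 (SD, n = 4) in air, and its effect at 3 h was 4.43 (adjusted p = 1.36e-04). By 6 h the effect was 1.13 and no longer passed (adjusted p = 0.669). Nr4a3 had an effect of 3.98 at 3 h (adjusted p = 3.49e-06), and Nr4a1 had 1.45 and did not pass (adjusted p = 0.181). Pdk4, the spermidine acetyltransferase Sat1 and the phosphate carrier Slc20a1 were the 3 genes that were higher at 1, 3 and 6 h, with effects at 6 h of 1.98 (adjusted p = 2.76e-04), 1.34 (adjusted p = 0.0263) and 0.77 (adjusted p = 0.0249). Of Sat1, exposed hearts measured 9.66 ± 0.64 at 1 h, 9.66 ± 0.54 at 3 h and 9.71 ± 0.08 at 6 h (SD, n = 4 each). The second-largest riser Ccn1 did not pass at 3 h (1.46, adjusted p = 0.312). Other genes higher at both 1 and 3 h were Fam107a, an actin-linked stress gene (2.34 at 3 h), the extracellular protein Tinagl1 (1.76), the kinase Map3k6 (1.49), Abra (2.04), Sgk1 (1.22), Irs2 (1.21) and Adamts1 (1.38).

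Only the test of the difference shows whether an effect at 1 h departs from that at 3 h, and 6 genes passed it (0.0446% of those tested). Cacng6, a calcium channel gamma subunit, was higher at 1 h (0.96, adjusted p = 0.0398) and lower at 3 h (-0.88, adjusted p = 0.0384), a difference of 1.84 ± 0.34 (adjusted p = 0.0314). Its groups overlapped at 1 h, and its rise passed in 2 of the 8 fits without 1 heart (adjusted p = 0.139 without Rat712). In air hearts it measured 4.02 ± 0.45 (SD, n = 4) at 1 h and 4.72 ± 0.37 (SD, n = 4) at 3 h, so the air mean was higher at 3 h. Kitlg, the ligand of the receptor Kit, was likewise higher at 1 h (0.54) and lower at 3 h (-0.49, adjusted p = 0.0397), a difference of 1.03 ± 0.19 (adjusted p = 0.0314). The rise of Kitlg at 1 h also passed in 2 of the 8 fits without 1 heart (adjusted p = 0.154 without Rat712). Lpar6, lower by 1.31 at 1 h, was at 0.27 at 3 h, a difference of -1.58 ± 0.28 (adjusted p = 0.0314). The other 3 had not passed at 1 h. Ky, a muscle protein of the sarcomere, had effects of 0.29 and -1.68 (difference 1.97 ± 0.29, adjusted p = 0.00626), and Gja1, the main gap junction protein of the ventricle, of 0 and -0.84 (difference 0.85 ± 0.16, adjusted p = 0.0364). For Ky another probe set had the opposite sign at 1 h. Tmem140 had -0.67 and 0.75 (difference -1.43 ± 0.26, adjusted p = 0.0314). Without 1 heart of 1 h at a time this count ran from 1 to 8. The 12 hepatocyte markers had a median effect of 0.9 in heart at 1 h and 2.23 at 3 h. The part of liver transcripts in the differences between these times was not tested.

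**Figure D4:**
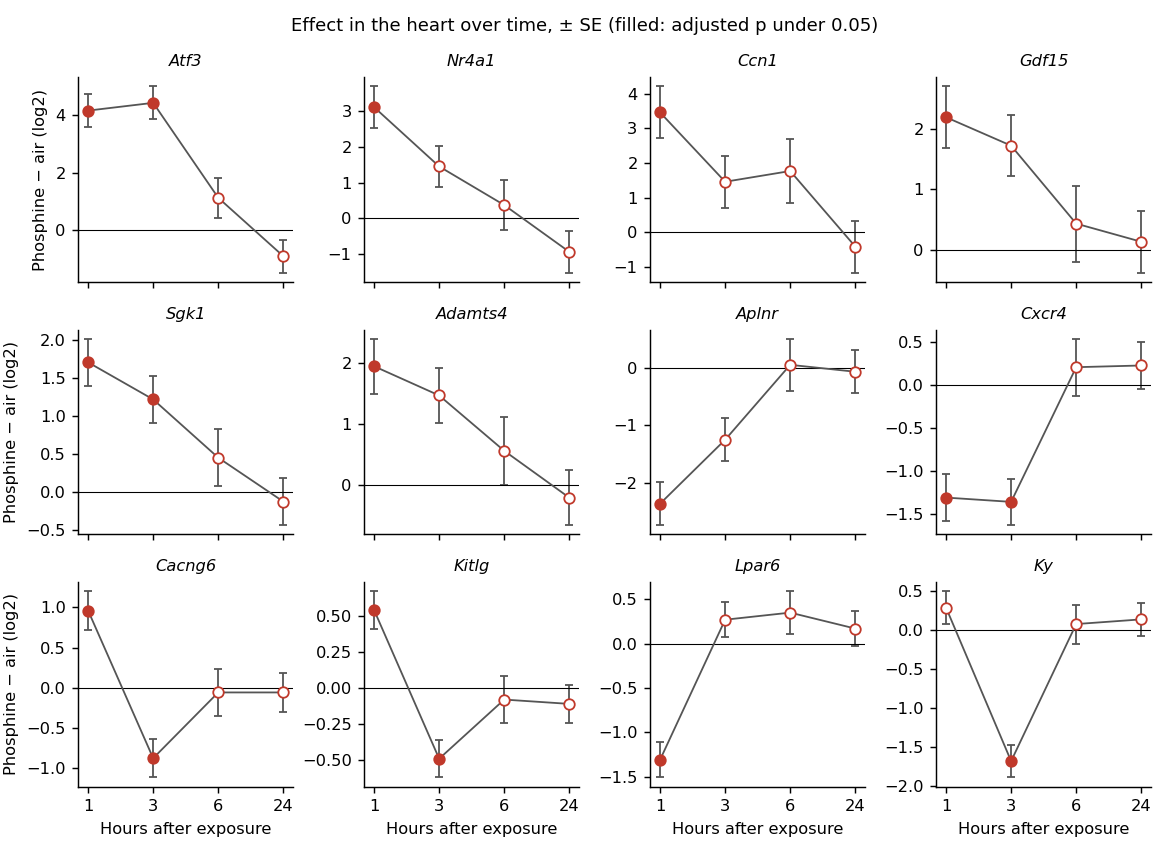
Effect of phosphine in the heart (log2, phosphine minus air, ± SE) at 1, 3, 6 and 24 h for 12 genes, each panel with its own scale, filled where the adjusted p was under 0.05. Atf3 is filled at 1 and 3 h with effects of 4.16 and 4.43, and Cacng6 and Kitlg lie above 0 at 1 h and below 0 at 3 h.

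Kidney and lung were measured in the same 8 rats at 1 h. The 133 genes higher in heart had a median effect of 0.38 in kidney and 0.29 in lung, and 119 and 111 of them had the same sign. The 46 lower genes had medians of -0.18 and -0.34, with 38 of the same sign in each. Over all genes, kidney had the sign of the heart in 56.5% of the genes above 0 in heart and in 55.9% of those below 0 in heart, and lung in 52.2% and 66.3%. Heart, kidney and lung of these counts share their animals. Atf3 had effects of 3.96 in kidney (adjusted p = 5.65e-07) and 1.87 in lung (adjusted p = 0.0422). Gdf15 had 2.39 in kidney (adjusted p = 2.82e-04) and 0.12 in lung (adjusted p = 0.967). These values come from fits of heart with kidney and heart with lung, in which 1.22% of genes passed in kidney and 3.24% in lung. Neither Atf3 nor Gdf15 passed the test of a difference of effect between heart and kidney or between heart and lung.

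The effect differed between heart and kidney in 49 genes (0.365%), 25 of which had passed in heart. Otud1 rose in heart but was at 0.15 in kidney and -0.16 in lung, differences of 2.28 ± 0.47 (adjusted p = 0.0116) and 2.59 ± 0.47 (adjusted p = 0.00168). Ier5 was at -0.08 in kidney and -0.40 in lung, differences of 1.44 ± 0.26 (adjusted p = 0.00337) and 1.76 ± 0.27 (adjusted p = 1.62e-04). Both genes thus had a higher effect in heart than in either organ. Genes that fell in heart parted from kidney as well. Aplnr differed by -2.18 ± 0.44 (adjusted p = 0.00895), Cxcr4 by -2.02 ± 0.36 (adjusted p = 0.0024), Cd200 by -1.85 ± 0.29 (adjusted p = 6.97e-04) and Rgs4 by -1.68 ± 0.34 (adjusted p = 0.0111). In kidney Cd200 was higher after phosphine (0.78, adjusted p = 0.0462), while Cxcr4 (0.70) and Rgs4 (0.82) did not pass there. Ccl2, which had passed in neither heart nor kidney, differed by 2.87 ± 0.67 (adjusted p = 0.0337), with effects of 1.55 and -1.32.

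Between heart and lung the effect differed in 102 genes (0.759%), 33 of which had passed in heart. Gadd45b, Junb and Zfp36 were at -0.10, -0.04 and 0 in lung, differences of 2.55 ± 0.43 (adjusted p = 6.34e-04), 2.05 ± 0.53 (adjusted p = 0.0489) and 1.90 ± 0.48 (adjusted p = 0.042). Irs2 differed by 1.80 ± 0.33 (adjusted p = 0.00168), Sgk1 by 1.64 ± 0.33 (adjusted p = 0.00719) and Klf2 by 1.5 ± 0.33 (adjusted p = 0.0137). Aplnr, at -0.63 in lung, differed by -1.74 ± 0.41 (adjusted p = 0.0275). Not all early genes parted the organs, since Fosb was at 3.14 and Maff at 1.86 in lung (adjusted p = 4.02e-04 and 3.07e-05) and their differences from heart, -0.25 and -0.29, did not pass (adjusted p = 0.969 and 0.936). In the other direction Creb5, a cyclic AMP response factor, had an effect of 2.16 in lung and 0.24 in heart (difference -1.92 ± 0.30, adjusted p = 2.54e-04). Its signal in heart was near the floor, 2.7 to 3.1 in exposed and 2.58 to 2.81 in air hearts. Nonspecific background probe sets had medians of 2.552 to 2.649 in exposed and 2.616 to 2.873 in air hearts. Fits of 2 organs without a rat left out its heart and also its lung or kidney. The 102 genes were 7 without Rat712 and Rat726. The count fell also without single rats, to 31 without exposed Rat719, 32 without exposed Rat712 and 37 without air Rat721. It was 59 without air Rat726 and 60 without air Rat720. Against kidney the 49 genes were 16, 23, 20 and 29 without Rat719, Rat712, Rat721 and Rat720. Without Rat712 the differences of Rgs4 from kidney and of Zfp36 from lung did not pass (adjusted p = 0.056 and 0.179).

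**Figure D5:**
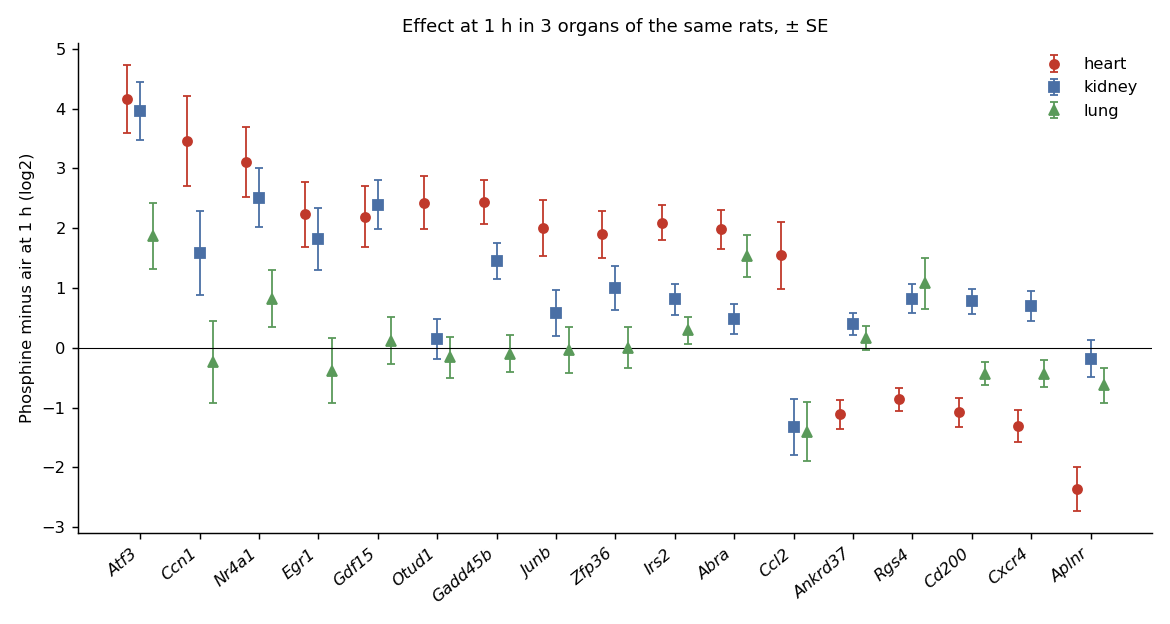
Effect of phosphine at 1 h (log2, ± SE) on 17 genes in heart (red circles), kidney (blue squares) and lung (green triangles) of the same 8 rats. Atf3 is at 4.16 in heart, 3.96 in kidney and 1.87 in lung, Otud1 is at 2.43 in heart and near 0 in the others, and Aplnr at -2.36 in heart is below both.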

How the data were processed

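Biotin-labelled copies of total RNA from frozen tissue (3′ IVT Plus chemistry) were hybridised to single-colour Affymetrix rat arrays, per the labels' protocols. The authors deposited log2 values, 1 per probe set, made with RMA and Partek per the submitters' processing notes, with versions, and whether all tissues were normalized together, not given in the sources used here. Of 31139 probe sets 97 were controls, 19063 named 1 gene each, 572 named several and 11407 none. Genes (13438) took the probe set with the highest mean, and no dim gene was left out. Symbols were updated by gene ID (18983 probe sets) or accession (3), and 77 kept the annotation's name.

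Group means over the 30 heart arrays were fitted with limma 3.58.1 (R 4.3.3) and eBayes (median total degrees of freedom 24.8), so that the spread is shared with later times. Contrasts of phosphine minus air, and their differences between times or organs (in joint fits of heart with kidney and heart with lung), passed where the p adjusted by Benjamini-Hochberg lay under 0.05. Organs of 1 rat share an animal per the labels. Over all genes the deviation of a heart from its group correlated with that of the same rat's kidney at -0.04 to 0.33 (best with its own kidney in 7 of 8 rats) and with that of its lung at -0.33 to 0.33 (5 of 8), and the rat as a block was an alternative. The other alternatives were array quality weights, quantile normalization, a robust eBayes with trend, median centring, averaged probe sets, a filter at the 40th percentile, a fit of the 8 hearts alone, pooled air, a 2-fold limit, and each 1 h rat left out. Leaving out Rat712 and Rat726 was added after seeing the data. The fit was also run on simulated data with independent noise for each gene and array. The simulation holds no deviations shared by the genes of an array, so it is no check of the counts.

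The comparison and the 32 gene lists and 22 marker lists were chosen with earlier results of these data known. Named genes are some of the 20 largest rises and 20 largest falls with a group mean over 4.41, up to 8 passing and 3 abundant non-passing members per list, the 10 largest differences per test and up to 10 genes per later time. Further genes (the highest and lowest of a list, more passing members, other genes of the difference tests) were named after their values were seen. Fos, Thbs1 and Arrdc3 were not analysed here. Figures were drawn with python 3.11.15 and matplotlib 3.10.9.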

Additional observations from a re-analysis of the deposited data

Results flagged for a closer look

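A heart far from the other 3 of its group was found in 16 of 236 groups of values of printed genes and marker lists, and chance gives about 1 in 20. Among air hearts, Rat720 stood apart in Jun (9.21), Maff (5.7) and Vegfa (9.97), and Rat721 in Nr4a3 (4.7), Cdkn1a (7.26), Otud1 (8.28), Pgf (4.08) and the mean of conduction system markers (3.87). Rat727 stood apart in Ddit3 (7.62), Akap12 (8.18), Cxcr4 (7.36) and Ky (6.62), and Rat726 in Rgs4 (6.8). Among exposed hearts, Rat712 stood apart in hepatocyte markers (7.9), Rat710 in lung epithelium markers (5.07) and Rat716 in endothelial markers (8.81, against 8.87 to 8.88).

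The effect in heart differed between 1 and 3 h in Ky (1.97), Cacng6 (1.84), Kitlg (1.03), Gja1 (0.85), Lpar6 (-1.58) and Tmem140 (-1.43). It differed between heart and kidney at 1 h, with a higher effect in heart, in Ccl2 (2.87), Otud1 (2.28), Ihh (1.63), Plek (1.62), A4galt (1.6), Abra (1.51), Ier5 (1.44) and Akap12 (1.27). Ihh did not pass in heart (0.24, adjusted p = 0.694) and fell in kidney (-1.39, adjusted p = 8.48e-05). A4galt passed in neither heart (0.74, adjusted p = 0.202) nor kidney (-0.86, adjusted p = 0.054). The effect was lower in heart than in kidney in Aplnr (-2.18), Cxcr4 (-2.02), Cd200 (-1.85), Rgs4 (-1.68), Ankrd37 (-1.51), Lpar6 (-0.96), Mylip (-0.95) and Il16 (-0.92).

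Between heart and lung, the effect was higher in heart in Ccl2 (2.95), Otud1 (2.59), Gadd45b (2.55), Junb (2.05), Zfp36 (1.9), Irs2 (1.8), Ier5 (1.76), Sgk1 (1.64), Klf2 (1.5) and Plek (1.23). The same direction was found in Akap12 (1.16), Fosl2 (1.15), Sat1 (1.13), Ccnl1 (1.06), Klf4 (1.05), Cacng6 (1.03), Kitlg (0.87), Vegfa (0.85) and Ddx5 (0.62). The effect was lower in heart in Slc25a15 (-2.25), Creb5 (-1.92), Aplnr (-1.74) and Ankrd37 (-1.27). All these differences were tested by the interaction in limma. Slc25a15 was at 1.99 in lung (adjusted p = 0.00176) and at -0.26 in heart, where it did not pass. The 12 hepatocyte markers had a median effect of 2.45 in lung, -1.43 in kidney and 0.9 in heart at 1 h, and 2.23 in heart at 3 h. The part of liver transcripts in the differences between organs or between times was not tested.

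Probe sets that list no gene or several genes entered no count of genes. Of 11979 such probe sets 67 passed at 1 h (0.559%), 56 higher and 11 lower. The largest rises were of 1394109_PM_at (3.53 ± 0.52, adjusted p = 5.84e-04) and 1392791_PM_at (3.43 ± 0.58, adjusted p = 0.00226), and the largest falls of 1382603_PM_at (-1.27) and 1377740_PM_at (-0.84).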

How the results depend on the processing

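No gene of the 179 changed sign in any alternative, and 23 passed in all alternatives that included them. The alternatives reuse the hearts by which the 179 were chosen, so the kept signs are a description and no test. The count at 1 h was 51 with only the 8 hearts in the fit (42 shared), 547 with pooled air (156 shared), 277 with array weights (174 shared), 72 at 2-fold and 50 without Rat712 and Rat726. Under quantile normalization it was 151 and under median centring 132. With array weights 92, 29 and 2 of the genes passing at 1 h passed at 3, 6 and 24 h, against 45, 4 and 0 in the main analysis. With the mean of probe sets 7 passed at 6 h. Without Rat712 and Rat726, 15 passed at 3 h and 2 at 6 h. The difference from 3 h was found in 3 genes under quantile normalization, median centring and without Rat712 and Rat726, against 6. The difference from kidney was found in 24 genes, and that from lung in 7, without Rat712 and Rat726, and that from lung in 67 under median centring. With the rat as a replicate block (correlation 0.066 with kidney, 0.0685 with lung) these counts were 60 and 126 against 49 and 102, and the block moved neither by over 1.5 times.

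Leaving out each heart gave from 73 to 199 genes at 1 h, from 24 to 49 also at 3 h, from 4 to 7 also at 6 h and 0 at 24 h. Differences ranged from 1 to 8 genes against 3 h. With heart and second organ of 1 rat left out, they ranged from 16 to 48 against kidney and from 31 to 101 against lung. Each such fit also had fewer hearts, and the cause of these shifts was not tested. Fosb in air and Ankrd37 after exposure lay under the median of all probe sets, and the number of arrays limits the precision.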
